A study of Mus musculus with 35 samples.

Results

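The genes described here are 40 genes of mitosis and the spindle, chosen by name, with earlier results of these data known. They are Cdk1, Ccna2, Ccnb1, Ccnb2, Plk1 and Aurka (cyclins and mitotic kinases), Aurkb, Incenp, Birc5 and Cdca8 (the chromosomal passenger complex), Bub1, Bub1b, Mad2l1 and Ttk (the spindle checkpoint), and Cenpa, Cenpe, Cenpf, Ndc80, Nuf2, Spc24 and Spc25 (centromere and kinetochore). The others are the kinesins Kif11, Kif15, Kif4, Kif2c, Kif20a and Kif23, the spindle proteins Tpx2, Nusap1, Hmmr and Prc1, the cytokinesis genes Anln and Ect2, the anaphase genes Cdc20, Ube2c, Pttg1 and Espl1, and Top2a, Mki67 and Cdca3. All 40 were found among the 21350 genes of the deposited table, and all 40 were among the 13860 genes tested.

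The series is an RNA-seq study of reprogramming driven by Oct4 and the histone demethylase Kdm2b in mouse cells. Cells that had received reprogramming factors by infection were kept in iCD1 medium, and some cultures had BMP4, a bone morphogenetic protein, at 10 ng/ml from the change to that medium on. There were 5 factor combinations, which the labels name OB, OA, ODR, ODB and ODDR without saying what the letters stand for, and without giving the starting cells or the vectors. Without BMP4, ODR and OA each had 2 libraries at day 1 and 3 at day 14, and OB had 2 at day 1, 4 at day 6 and 3 at day 14. At day 6 without BMP4, OA had 3 libraries and ODR had 2 that were used. At day 6 with BMP4, OB had 2 libraries and ODR had 1 that was used. At day 9 ODB and ODDR were sampled in both media. These, the mouse embryonic stem cells (mESC) and the mouse embryonic fibroblasts (MEF) had 1 library for each label and no test.

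Levels of the introduced genes went with the labels except in 2 columns. All OB cultures of days 1 and 6 without BMP4 had Kdm2b at 18690, the highest value in the table, and at day 14 they had 4220 to 6246. With BMP4 at day 6, Kdm2b was 9306 in OB replicate 1 and 18690 in OB replicate 2. It was 202 to 460 in the ODR and OA libraries. Kdm2a stood at the ceiling in the OA libraries except in OA day 1 replicate 2 (9294) and in the library labelled OA day 14 replicate 2, where it was 721, below all ODR libraries without BMP4. Pou5f1, which encodes Oct4, stood at 18690 in every infected culture but OB day 14 replicate 1 (7086). The column labelled ODB with BMP4 at day 9 is identical to that labelled ODDR with BMP4 and has a Kdm2b value of 239, against 18690 in ODB without BMP4. The column labelled ODR day 6 replicate 3 is identical to that labelled ODR with BMP4 day 6 replicate 2, and both were left out of all tests. Values are the authors' normalized tag counts, with library totals from 4255921 to 4398785, so the sequencing depth is unknown and each value is relative to the rest of its library.

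Mitosis begins when cyclin B and Cdk1 form an active kinase, and the kinases Plk1, Aurora A and Aurora B then organise centrosomes, spindle and chromosome attachment. The checkpoint kinases and Mad2 hold the anaphase-promoting complex inactive until every kinetochore is attached, after which Cdc20 activates it, securin is destroyed, separase opens cohesin and the cell divides. Transcripts of many of these genes rise late in each cell cycle, and in bulk RNA their level follows how many cells are in or near division. In these bulk libraries fewer dividing cells and less of the RNA per cell cannot be told apart.

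Late cell cycle promoters are known for a cell cycle genes homology region, written TTTGAA, which is bound by the DREAM and MuvB complexes, and for CCAAT boxes bound by NF-Y. RefSeq promoters of build GRCm38.p6, from 250 bases before to 50 after the start, were in the reference table for 34 of the 40 genes, and both strands were searched. TTTGAA was found in 26 of 34 (76.5%), against 5466 of 27025 genes (20.2%) of the whole table. CCAAT was found in 25 of 34 (73.5%), against 41.1% of all genes, and both were found in 22 of 34 (64.7%), against 7.97%. From 40 bases before to 50 after the start, TTTGAA was found in 24 of 34 (70.6%), against 5.10%. The E2F words TTTCCCGC, TTTGGCGC, TTTCGCGC and TTTGCGCG, of which the last can overlap the third, were found in 2 of 34 (5.88%) and in 2.45% of all genes. For comparison, 18 DNA replication genes, of which 14 had a promoter, held TTTGAA in 2 (14.3%), CCAAT in 10 (71.4%) and an E2F word in 7 (50%). TTTGAA was also found in 14 of 25 promoters (56%) of further spindle and cytokinesis genes and in 12 of 28 (42.9%) of further kinetochore genes. A match is a description of the letters and shows no binding.

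The promoters below cover the 120 bases before the start of 8 members with TTTGAA in that stretch, given 5′ to 3′ on the gene's strand in build GRCm38.p6, because they show how the motif sits within promoters of different roles. Capitals mark TTTGAA or its reverse complement TTCAAA, and CCAAT or its reverse complement ATTGG.
Cdk1 chr10:69352913-69353032 (minus strand): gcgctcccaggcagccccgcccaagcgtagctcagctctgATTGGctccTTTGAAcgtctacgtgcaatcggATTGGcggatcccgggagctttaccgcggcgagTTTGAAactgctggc
Kif11 chr19:37376262-37376381 (plus strand): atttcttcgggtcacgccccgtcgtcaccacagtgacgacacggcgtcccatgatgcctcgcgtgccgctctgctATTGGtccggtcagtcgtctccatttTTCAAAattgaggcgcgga
Kif15 chr9:122950961-122951080 (plus strand): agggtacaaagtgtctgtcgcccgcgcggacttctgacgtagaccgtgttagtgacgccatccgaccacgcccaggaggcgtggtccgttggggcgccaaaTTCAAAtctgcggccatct
Ect2 chr3:27153879-27153998 (minus strand): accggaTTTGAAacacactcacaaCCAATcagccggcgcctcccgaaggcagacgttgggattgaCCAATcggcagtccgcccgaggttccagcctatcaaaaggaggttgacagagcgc
Cdc20 chr4:118437344-118437463 (minus strand): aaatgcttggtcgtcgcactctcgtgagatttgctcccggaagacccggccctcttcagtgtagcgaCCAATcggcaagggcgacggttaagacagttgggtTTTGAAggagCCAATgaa
Ube2c chr2:164769809-164769928 (plus strand): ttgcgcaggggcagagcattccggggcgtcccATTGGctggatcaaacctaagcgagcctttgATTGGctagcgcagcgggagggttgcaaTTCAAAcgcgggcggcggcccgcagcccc
Top2a chr11:99024190-99024309 (minus strand): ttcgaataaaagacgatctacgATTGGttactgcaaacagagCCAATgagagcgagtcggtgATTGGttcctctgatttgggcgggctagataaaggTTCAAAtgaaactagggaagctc
Mki67 chr7:135716380-135716499 (minus strand): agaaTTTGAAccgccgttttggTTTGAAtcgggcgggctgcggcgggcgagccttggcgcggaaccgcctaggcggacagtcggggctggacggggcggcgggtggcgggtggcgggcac
In Ccnb1 and Bub1 no TTTGAA was found in the whole window, and both hold CCAAT boxes, shown here in the same way.
Ccnb1 chr13:100786487-100786606 (minus strand): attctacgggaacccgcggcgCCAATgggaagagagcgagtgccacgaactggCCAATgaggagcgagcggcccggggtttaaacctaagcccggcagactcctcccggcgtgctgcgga
Bub1 chr2:127831860-127831979 (minus strand): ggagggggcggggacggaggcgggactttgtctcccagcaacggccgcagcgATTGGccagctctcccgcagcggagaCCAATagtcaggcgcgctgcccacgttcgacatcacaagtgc
The median log2 difference of OB against ODR at day 14, described next, was 1.89 over the 26 members with TTTGAA, 1.80 over the 8 members without it and 2.06 over the 6 members with no promoter in the table. The ranges overlapped, from 0.78 to 2.80 with the motif and from 1.43 to 2.44 without it.

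At day 14 every mitosis and spindle gene was higher in OB than in ODR. All 40 of 40 passed the test upward (limma, adjusted p below 0.05 over all genes tested), against 28.0 percent of all genes called higher and 26.7 percent called lower, and the median log2 difference was 1.93 over the members and 0.01 over all genes tested. For all 40 genes the lowest OB library lay above the highest ODR library, which was so for 31.6 percent of all genes. Sums over the 40 genes were 29490, 26089 and 23016 normalized tag counts in OB, against 7383, 6920 and 6897 in ODR. The labels do not say where replicates come from, so the p-values here reflect only how libraries of a group vary, and that variation may be technical. All log2 differences are of the normalized tag count plus 1, given with their standard error (SE).

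**Figure D1:**
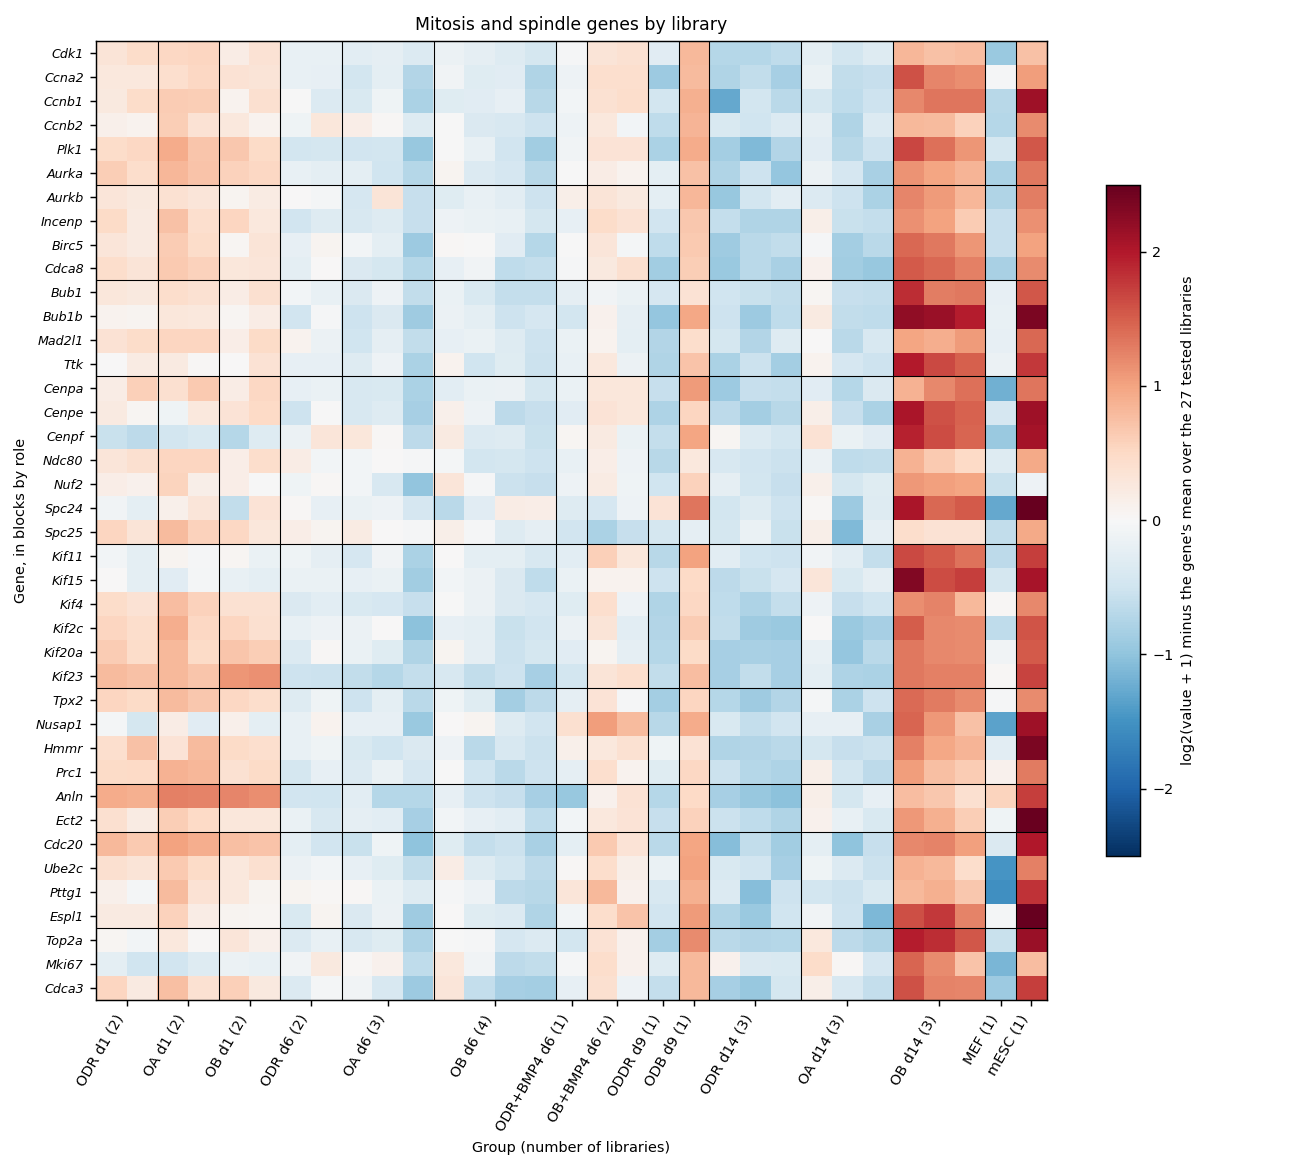
Rows are the 40 genes in blocks by role. Columns are the 27 tested libraries by group, with the untested libraries of ODDR and ODB without BMP4 at day 9, MEF and mESC. Colour is log2(value + 1) minus the gene's mean over the 27 tested libraries. Among the tested libraries, the 3 OB libraries of day 14 are the highest block for most genes. The OB mean of day 14 is below mESC for 33 genes. For most genes day 1 libraries lie above those of day 6 and of ODR and OA at day 14.

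Among cyclins and mitotic kinases, Cdk1, the catalytic kinase of mitotic entry, was 256, 257 and 272 in ODR and 748, 704 and 719 in OB at day 14. The OB values lay within a narrow band well above all ODR values, a log2 difference of 1.46 ± 0.08 (limma adjusted p = 1.67e-09). Ccna2, cyclin A, was 207, 228 and 198 in ODR and 1056, 820 and 792 in OB, a log2 difference of 2.06 ± 0.16 (limma adjusted p = 2.6e-08). Plk1, the polo-like kinase of centrosome maturation and mitotic exit, was 130, 110 and 142 in ODR and 750, 617 and 507 in OB. Its log2 difference was 2.28 ± 0.20 (limma adjusted p = 5.71e-08), the largest among the 6 genes of this role. The smallest was that of Ccnb2, a B-type cyclin, at 164, 152 and 169 in ODR and 377, 373 and 320 in OB, a log2 difference of 1.13.

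The chromosomal passenger complex carries Aurora B to centromeres and later to the midzone, and its 4 genes all rose. Cdca8, the borealin subunit, was 106, 126 and 116 in ODR and 590, 548 and 489 in OB, a log2 difference of 2.21 ± 0.21 (limma adjusted p = 1.44e-07). Incenp, the scaffold of the complex, was 238, 212 and 212 in ODR and 794, 723 and 558 in OB, a log2 difference of 1.63 ± 0.17 (limma adjusted p = 5.39e-07). Birc5, survivin, was 96, 111 and 116 in ODR and 486, 448 and 386 in OB, a log2 difference of 2.02 ± 0.23 (limma adjusted p = 1.2e-06). The groups did not overlap for any of these genes.

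The spindle checkpoint held the gene with the largest difference of all 40. Bub1b, which encodes the checkpoint protein BubR1, was 126, 96 and 116 in ODR and 845, 809 and 712 in OB, 6.97-fold higher (log2 difference 2.80 ± 0.20, limma adjusted p = 1.05e-08). Ttk, the Mps1 kinase at the head of the checkpoint, was 60, 72 and 58 in ODR and 414, 330 and 296 in OB, a log2 difference of 2.43 ± 0.21 (limma adjusted p = 5.01e-08). Bub1, the kinase that recruits checkpoint proteins to kinetochores, was 182, 176 and 168 in ODR and 938, 630 and 647 in OB. Its log2 difference was 2.04 ± 0.18 (limma adjusted p = 6.02e-08), and replicate 1 of OB stood above the other OB libraries. Mad2l1, the Mad2 protein itself, was 116, 94 and 126 in ODR and 314, 295 and 331 in OB, which made it the least changed of the checkpoint genes at 2.80-fold.

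Kinetochore genes rose unevenly. Cenpa, the centromeric histone H3 variant, was 98, 124 and 122 in ODR and 339, 430 and 482 in OB, a log2 difference of 1.85 ± 0.17 (limma adjusted p = 8.23e-08). Cenpe, a kinesin of chromosome congression, was 144, 126 and 140 in ODR and 944, 690 and 638 in OB, a log2 difference of 2.44 ± 0.24 (limma adjusted p = 2.18e-07). Spc24 and Spc25 are partners in the Ndc80 complex, the main microtubule-binding unit of the kinetochore. Spc24 was 29, 32 and 28 in ODR and 168, 110 and 118 in OB, a log2 difference of 2.09 ± 0.26 (limma adjusted p = 3.03e-06). Its partner Spc25 had the smallest difference of the 40 genes, from 108, 130 and 99 in ODR to 200, 188 and 189 in OB, or 1.72-fold. The other members of that complex lay in between, Ndc80 at 2.21-fold and Nuf2 at 2.73-fold.

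Among the mitotic kinesins, Kif23, the midzone motor of cytokinesis, was 90, 104 and 90 in ODR and 404, 386 and 386 in OB, a log2 difference of 2.04 ± 0.13 (limma adjusted p = 2.93e-09). Kif11, the motor that pushes spindle poles apart, was 234, 197 and 196 in ODR and 882, 810 and 718 in OB, a log2 difference of 1.94 ± 0.16 (limma adjusted p = 4.98e-08). Kif15, a second bipolarity motor, was 83, 89 and 98 in ODR and 654, 407 and 436 in OB. Its log2 difference was 2.43 ± 0.21 (limma adjusted p = 6.61e-08), the largest of the 6 kinesins, with replicate 1 of OB above the others. Kif4, Kif2c and Kif20a were 3.35-fold, 4.29-fold and 4.15-fold higher.

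Spindle assembly and cytokinesis genes followed. Tpx2, which activates Aurora A on the spindle, was 262, 232 and 258 in ODR and 1150, 1057 and 984 in OB, a log2 difference of 2.08 ± 0.19 (limma adjusted p = 8.71e-08). Hmmr, a spindle-associated hyaluronan receptor, was 109, 110 and 114 in ODR and 440, 360 and 329 in OB, a log2 difference of 1.74 ± 0.14 (limma adjusted p = 2.92e-08). Prc1, a crosslinker of midzone microtubules, rose by a log2 difference of 1.49 ± 0.18 (limma adjusted p = 2.69e-06). Anln, the anillin scaffold of the contractile ring, was 216, 197 and 188 in ODR and 654, 608 and 507 in OB, a log2 difference of 1.55 ± 0.16 (limma adjusted p = 4.72e-07). Ect2, the exchange factor that switches on RhoA at the division plane, was 132, 124 and 113 in ODR and 407, 358 and 296 in OB, a log2 difference of 1.51 ± 0.17 (limma adjusted p = 1.01e-06).

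The partners of the anaphase-promoting complex and the chromosome genes rose as well. Cdc20, its mitotic activator, was 114, 156 and 132 in ODR and 556, 568 and 492 in OB, a log2 difference of 2.01 ± 0.21 (limma adjusted p = 3.2e-07). Espl1, separase, was 78, 69 and 93 in ODR and 406, 450 and 312 in OB, a log2 difference of 2.26 ± 0.25 (limma adjusted p = 7.05e-07). Ube2c, the ubiquitin-conjugating enzyme of the complex, was 240, 222 and 174 in ODR and 570, 550 and 423 in OB, a log2 difference of 1.28 ± 0.19 (limma adjusted p = 1.8e-05). Top2a, the topoisomerase that untangles sister chromatids, was 643, 620 and 627 in ODR and 4005, 3704 and 3020 in OB, 5.63-fold higher (log2 difference 2.49 ± 0.21, limma adjusted p = 4.19e-08). Mki67, the Ki-67 coat protein of mitotic chromosomes, was 1244, 892 and 880 in ODR and 3176, 2624 and 1898 in OB. Its difference was among the less precise, at 1.34 ± 0.27 on the log2 scale (limma adjusted p = 0.000418), and the groups did not overlap.

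Cell type markers moved at the same time. All 12 fibroblast markers were detected in every library of both groups, and their sums were 35921 to 46581 in ODR and 20575 to 26470 in OB at day 14. The 8 epithelial markers summed to 7 to 11 in ODR, where Cdh1, Cldn4, Cldn7 and Ocln were at 0 in all libraries, and to 81 to 229 in OB. Sums of 6 endothelial markers were 256 to 319 in ODR and 91 to 114 in OB, those of 8 neural markers 3974 to 5286 and 2630 to 3191, and those of 7 macrophage and leukocyte markers 44 to 89 and 10 to 40. Those of 6 muscle markers were 776 to 1452 and 415 to 1082, with 1 or 2 of the 6 at 10 or more in each library. The sums of 5 keratinocyte markers were 254 to 354 and 17 to 66. Krt5, Krt14, Krt6a and Krt17 were at 0 in all these libraries, so only the remaining marker gave the keratinocyte sums. Of 10 embryonic stem cell markers, the introduced Pou5f1 sets the sums. The other 9 summed to 19, 19 and 20 in ODR and to 346, 301 and 321 in OB, where Sox2, a pluripotency factor, made up 302, 274 and 292, against 6, 10 and 8 in ODR. The 8 left without Sox2 summed to 9 to 13 in ODR and 27 to 44 in OB. Zfp42 and Tdgf1 were at 0 in all ODR libraries and in OB replicate 2. The part of these markers in the mitotic genes' difference was not tested.

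In OA few of these genes differed from ODR at day 14. Here 2 of 40 genes passed the test upward and 0 downward, with 2.82 percent of all genes called higher and 2.53 percent lower, and the median log2 difference was 0.24 over the members and 0.00 over all genes. Anln was 422, 280 and 330 in OA against 216, 197 and 188 in ODR (log2 difference 0.76 ± 0.16, limma adjusted p = 0.0108). Cdk1 was 354, 307 and 334 in OA against 256, 257 and 272 in ODR (log2 difference 0.34 ± 0.08, limma adjusted p = 0.0253). Neither gene's groups overlapped, which was so upward for 8 of 40 members and 7.72 percent of all genes. OA replicate 1 stood highest, with 39 of 40 genes above the group mean and a sum of 11150, against 7603 and 7387 in the other OA libraries. Without it the median was 0.06 and 1 gene was called, and without the library labelled OA replicate 2, whose Kdm2a was low, the median was 0.36 and 2 genes were called. That library also stood apart in markers, with an epithelial sum of 1176 against 134 and 82 in replicates 1 and 3. Its fibroblast sum was 26417 against 59771 and 58305, and its muscle sum 499 against 2222 and 2178. Of the 6 muscle markers, 1 reached 10 in each OA library. The part of these markers in the comparison was not tested. Cdk1 lost its call without ODR replicate 1, without ODR replicate 2 or without OA replicate 1 (limma adjusted p = 0.0841, 0.0932 and 0.0735), and both genes lost theirs when only these groups were fitted (limma adjusted p = 0.239 for Anln and 0.415 for Cdk1).

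Set directly against OA at day 14, OB was higher for all 40 genes, with 26.5 percent of all genes called higher and a median log2 difference of 1.67 over the members and 0 over all genes. The groups overlapped for none of the 40, against 27.1 percent of all genes higher without overlap. Kif23 was 135, 93 and 92 in OA and 404, 386 and 386 in OB, a log2 difference of 1.89 ± 0.13 (limma adjusted p = 1.4e-08). Bub1b was 212, 118 and 116 in OA and 845, 809 and 712 in OB, a log2 difference of 2.45 ± 0.20 (limma adjusted p = 7.65e-08). Anln, the gene with the clearest rise in OA, differed by 0.79 ± 0.16 (limma adjusted p = 0.0006). With only these groups fitted 39 of 40 were called, without Spc25 (limma adjusted p = 0.111). This comparison shares its OB libraries with the one against ODR.

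**Figure D2:**
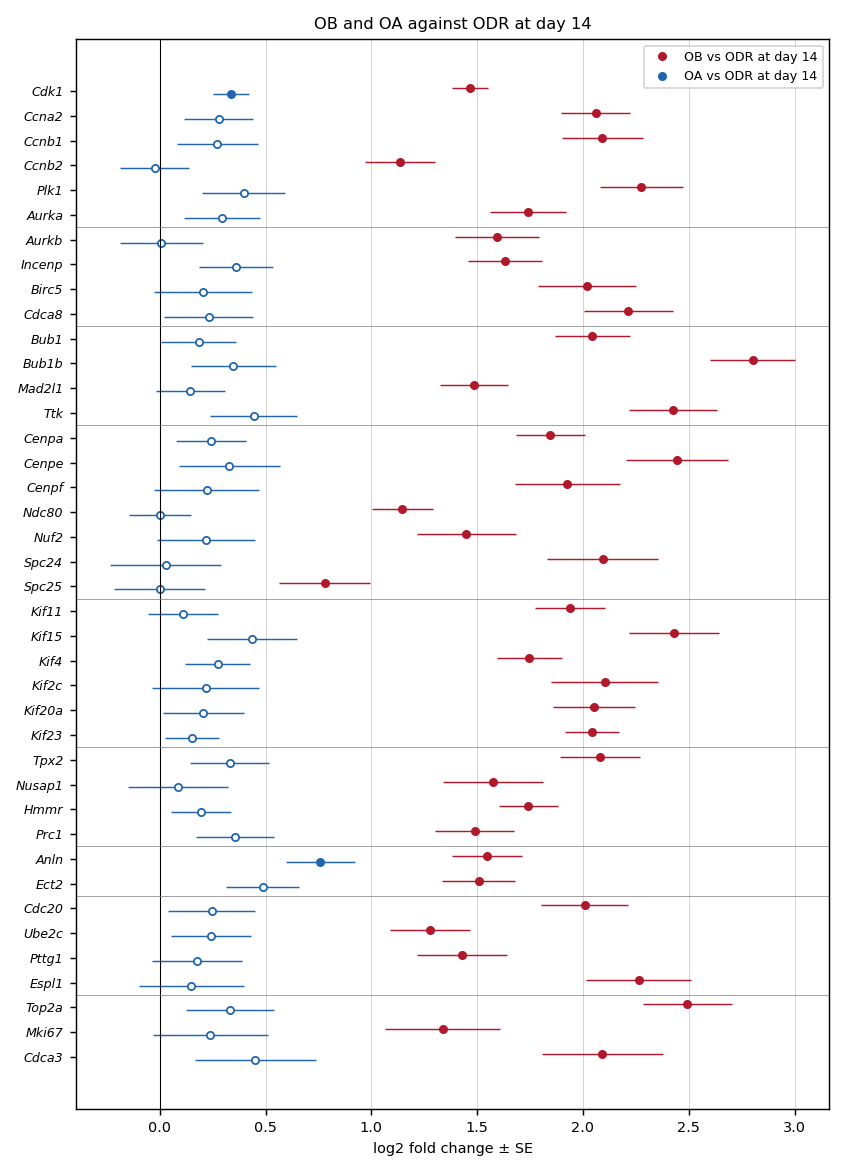
Each row is a gene, and the points give the log2 fold change at day 14 with the bar as ± SE, for OB against ODR (red) and OA against ODR (blue), which share the ODR libraries. Filled points passed the test (limma adjusted p below 0.05) and open points did not. All 40 red points lie from 0.78 to 2.80, and the blue points lie near 0 with Anln and Cdk1 filled.

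Without BMP4, no member passed the test between combinations at day 1 or day 6, and day 9 was not tested. At day 1, 0 of 40 genes passed the test between OB and ODR (1 at an unadjusted p below 0.05 in limma, with 0.642 percent of all genes called higher and 0.238 percent lower), and the median log2 difference was 0.01. Between OA and ODR at day 1, 0 of 40 passed (0 at an unadjusted p below 0.05 in limma, with 0.0289 percent called higher and 0.0361 percent lower), with a median of 0.20 against 0 over all genes. The OA sums of 15412 and 14397 lay above the ODR sums of 13353 and 12732, and 24 genes were higher in OA without overlap, against 16.2 percent of all genes. At day 6, 0 of 40 passed between OB and ODR (2 at an unadjusted p below 0.05 in limma, with 5.74 percent called higher and 4.81 percent lower), with a median of -0.17 against -0.01 over all genes. Between OA and ODR at day 6, 0 of 40 passed (1 at an unadjusted p below 0.05 in limma, with 1.34 percent called higher and 0.880 percent lower), with a median of -0.24 over the members. OB against OA gave 0 of 40 at day 1 and 0 of 40 at day 6 in limma (2 and 1 at an unadjusted p below 0.05), with medians of -0.22 and 0.09 over the members, 1.01 and 3.92 percent of all genes called higher and 0.390 and 3.35 percent lower.

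From day 1 to day 6 many of the genes fell in every combination, led by Anln. In ODR 14 of 40 fell and 0 rose (median log2 difference -0.44 over the members and -0.03 over all genes, with 12.5 percent of all genes called lower and 12.6 percent higher). In OA 30 of 40 fell and 0 rose (median -0.94 and -0.02, with 17.6 percent called lower and 17.0 percent higher). In OB 25 of 40 fell and 0 rose (median -0.62 and -0.03, with 17.1 percent called lower and 16.7 percent higher). For 32 genes in ODR, 35 in OA and 31 in OB every day 6 library lay below every day 1 library, against 34.1, 31.8 and 28.2 percent of all genes. The counts of calls in ODR and OB depended on single libraries. ODR had 7 without day 1 replicate 1, 6 without day 1 replicate 2 and 6 without day 6 replicate 1, and OB had 12 without day 1 replicate 2. The difference between the OB and ODR changes was itself not called for any member (0 of 40, 0 at an unadjusted p below 0.05 in limma, with 0.310 percent of all genes called higher and 0.209 percent lower).

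Cell type markers moved over the same days. In ODR the 8 epithelial markers summed to 431–502 at day 1 and 23–49 at day 6, in OA to 397–563 and 88–152, and in OB to 385–662 and 53–90. The 12 fibroblast markers gave 40915–55364 and then 33977–43289 in ODR, 40949–54663 and 38593–41789 in OA, and 41296–46831 and 37327–40224 in OB. The 6 muscle markers summed to 184–260 and then 1108–2016 in OA, and to 178–260 and then 1899–1988 in OB, while in ODR they were 169–229 and 220–299. In each library of days 1, 6 and 14 only 1 or 2 of these 6 reached 10. The 7 macrophage and leukocyte markers summed to 573–576 and then 221–484 in ODR, to 547–635 and 299–519 in OA, and to 540–557 and 299–504 in OB. The 6 endothelial markers gave 262–274 and then 388 and 388 in ODR, 284–324 and 314–394 in OA, and 457–496 and 155–244 in OB. The 8 neural markers gave 2978–3213 and then 3839–4170 in ODR, 3300–3426 and 4835–5107 in OA, and 3217–3626 and 4722–5879 in OB. The 5 keratinocyte markers, of which at most 1 reached 10, gave 4–22 and then 132–148 in ODR. They gave 1–16 and 83–99 in OA, and 8 and 80–99 in OB. From day 6 to day 14 in OB, the sums of the 12 fibroblast markers were 37327–40224 and then 20575–26470, and those of the macrophage and leukocyte markers 299–504 and then 10–40. Over the same interval in OB, the muscle markers summed to 1899–1988 and then 415–1082, and the 8 neural markers to 4722–5879 and then 2630–3191. The part of these markers in the changes over time was not tested.

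Anln was 732 and 706 in ODR, 919 and 906 in OA and 898 and 860 in OB at day 1. At day 6 it was 276 and 272 in ODR, 318, 234 and 234 in OA and 331, 268, 257 and 214 in OB, with no overlap between days. Its log2 change was -1.39 ± 0.20 in ODR, -1.81 ± 0.18 in OA and -1.73 ± 0.17 in OB (limma adjusted p = 8.01e-05, 1.06e-06 and 9.36e-07). Kif23, which acts with Anln at the division plane, went from 280 and 268 to 112 and 111 in ODR, from 284 and 260 to 104, 97 and 106 in OA, and from 344 and 356 to 122, 105, 112 and 90 in OB. Its log2 change was -1.29 ± 0.16, -1.40 ± 0.14 and -1.71 ± 0.14 in that order (limma adjusted p = 1.39e-05, 1.14e-06 and 7.46e-08). In each combination no day 6 library reached the lowest day 1 library for this gene.

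Entry and exit regulators fell too. Cdc20 went from 420 and 381 to 204 and 172 in ODR (log2 change -1.09 ± 0.25, limma adjusted p = 0.00394), and from 404 and 393 to 194, 159, 166 and 136 in OB (-1.29 ± 0.22, limma adjusted p = 0.000204). In OA it went from 482 and 452 to 163, 222 and 120 (-1.51 ± 0.23, limma adjusted p = 7.53e-05). Cdk1 went from 525 and 575 to 368 and 372 in ODR (-0.57 ± 0.10, limma adjusted p = 0.000636), from 606 and 614 to 350, 362 and 333 in OA (-0.81 ± 0.09, limma adjusted p = 5.54e-06), and from 481 and 542 to 382, 358, 335 and 312 in OB (-0.56 ± 0.09, limma adjusted p = 0.000129). Plk1 fell in all 3 as well, by 0.93 ± 0.24 in ODR, 1.43 ± 0.22 in OA and 0.97 ± 0.21 in OB on the log2 scale (limma adjusted p = 0.00837, 8.24e-05 and 0.00158). All 6 cyclin and kinase genes were called in OA and in OB, and 3 of 6 in ODR. Several of these calls were not firm, among them those of Plk1 and Aurka in ODR, which rested on 2 libraries at each day. Leaving out day 1 replicate 2 gave Plk1 a log2 change of -0.91 in ODR. Leaving out any of these ODR libraries gave Aurka changes from -0.65 to -0.83. The calls of Ccnb2 in OA and OB and of Ccnb1 in OB were not firm either. In OB, Ccnb2 lost its call with only the compared groups fitted (limma adjusted p = 0.0571) and without day 1 replicate 1 or 2 or day 6 replicate 2, 3 or 4 (limma adjusted p = 0.215, 0.0782, 0.0594, 0.0672 and 0.0804). In OA it lost the call with only the compared groups (limma adjusted p = 0.0821) and without day 1 replicate 1 or 2 or day 6 replicate 3 (limma adjusted p = 0.221, 0.0599 and 0.132). Ccnb1 lost its call in OB without day 1 replicate 2 or day 6 replicate 4 (limma adjusted p = 0.239 and 0.0693).

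Cenpf and Mki67 had positive log2 changes in ODR over this interval. Cenpf, a large outer kinetochore protein, was 162 and 152 at day 1 and 216 and 295 at day 6 in ODR, a log2 change of 0.68 ± 0.30 that did not pass the test (limma adjusted p = 0.112). Mki67 was 976 and 812 at day 1 and 1088 and 1366 at day 6 in ODR, also without passing (log2 change 0.45 ± 0.33, limma adjusted p = 0.352). In OA, Cenpf was 174 and 184 at day 1 and 290, 246 and 152 at day 6. In OB, Cenpf was 146 and 192 and then 280, 188, 191 and 162. Its mean was thus higher at day 6 in OA and OB too, with overlapping days. Mki67 was 832 and 918 and then 1173, 1244 and 746 in OA. In OB, Mki67 was 1048 and 1010 and then 1380, 1080, 737 and 758. Aurkb, Ttk, Spc24, Spc25, Kif11, Kif15 and Nusap1 were called in none of the 3 combinations, although most of their log2 changes were negative. In ODR, OA and OB the log2 change was -0.31, -0.62 and -0.51 for Spc25, whose days did not overlap in any combination, and -0.30, -0.56 and -0.46 for Aurkb. It was -0.31, -0.54 and -0.50 for Ttk, -0.02, -0.46 and -0.16 for Kif11 and -0.06, -0.25 and -0.09 for Kif15, negative throughout. Spc24 (0.07, -0.44 and -0.01) and Nusap1 (0.20, -0.40 and -0.12) had a positive value in ODR.

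From day 6 to day 14 the combinations parted. In OB all 40 genes rose, with 26.8 percent of all genes called higher, 28.2 percent lower and a median log2 change of 1.53 over the members and -0.01 over all genes. Bub1b went from 163, 153, 126 and 136 to 845, 809 and 712 (log2 change 2.44 ± 0.19, limma adjusted p = 2.28e-08). Kif23 went from 122, 105, 112 and 90 to 404, 386 and 386 (1.87 ± 0.12, limma adjusted p = 4.05e-09), and Cdk1 from 382, 358, 335 and 312 to 748, 704 and 719 (1.06 ± 0.08, limma adjusted p = 1.67e-08). Days did not overlap for any of the 40, against 28.6 percent of all genes higher without overlap. Spc25 changed least, from 162, 144, 118 and 126 to 200, 188 and 189 (1.41-fold, limma adjusted p = 0.0465), and lost its call without day 6 replicate 2, 3 or 4, without any of the day 14 libraries, without a filter or with the shared library kept as ODR with BMP4 (limma adjusted p from 0.0543 to 0.117).

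In ODR few of the genes passed the test over the same interval. All 40 log2 changes were negative, with a median of -0.48 against -0.04 over all genes, but 2 of 40 passed the test downward and 0 upward (1.68 percent of all genes called lower and 2.27 percent higher). Cdk1 went from 368 and 372 to 256, 257 and 272 (-0.50 ± 0.09, limma adjusted p = 0.0061), and Hmmr from 162 and 169 to 109, 110 and 114 (-0.57 ± 0.16, limma adjusted p = 0.0483). For 38 of 40 genes every day 14 library lay below every day 6 library, against 21.5 percent of all genes. The calls rested on few libraries: none was left with only the compared groups fitted, without ODR day 6 replicate 1 or without replicate 2, and 1 when any of the day 14 replicates was left out. In OA 0 of 40 passed in limma (4 at an unadjusted p below 0.05, with 4.05 percent of all genes called higher and 4.08 percent lower), and the median was 0.03. There, 2 of 40 fell when day 14 replicate 1 was left out.

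The difference between the OB and ODR changes from day 6 to day 14 was called for all 40 genes, with OB higher each time, 18.3 percent of all genes called higher, 17.2 percent lower and a median of 2.07 over the members and 0 over all genes. It was largest for Bub1b, at 2.88 ± 0.29 on the log2 scale (limma adjusted p = 3.84e-06), and smallest for Spc25, at 1.01 ± 0.31 (limma adjusted p = 0.0184). For Cdk1 it was 1.56 ± 0.12 (limma adjusted p = 3.55e-07). Between OA and ODR the same difference of changes was called for 0 of 40 members in limma (10 at an unadjusted p below 0.05) and for 0 percent of all genes in either direction, with a median of 0.49 over the members.

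**Figure D3:**
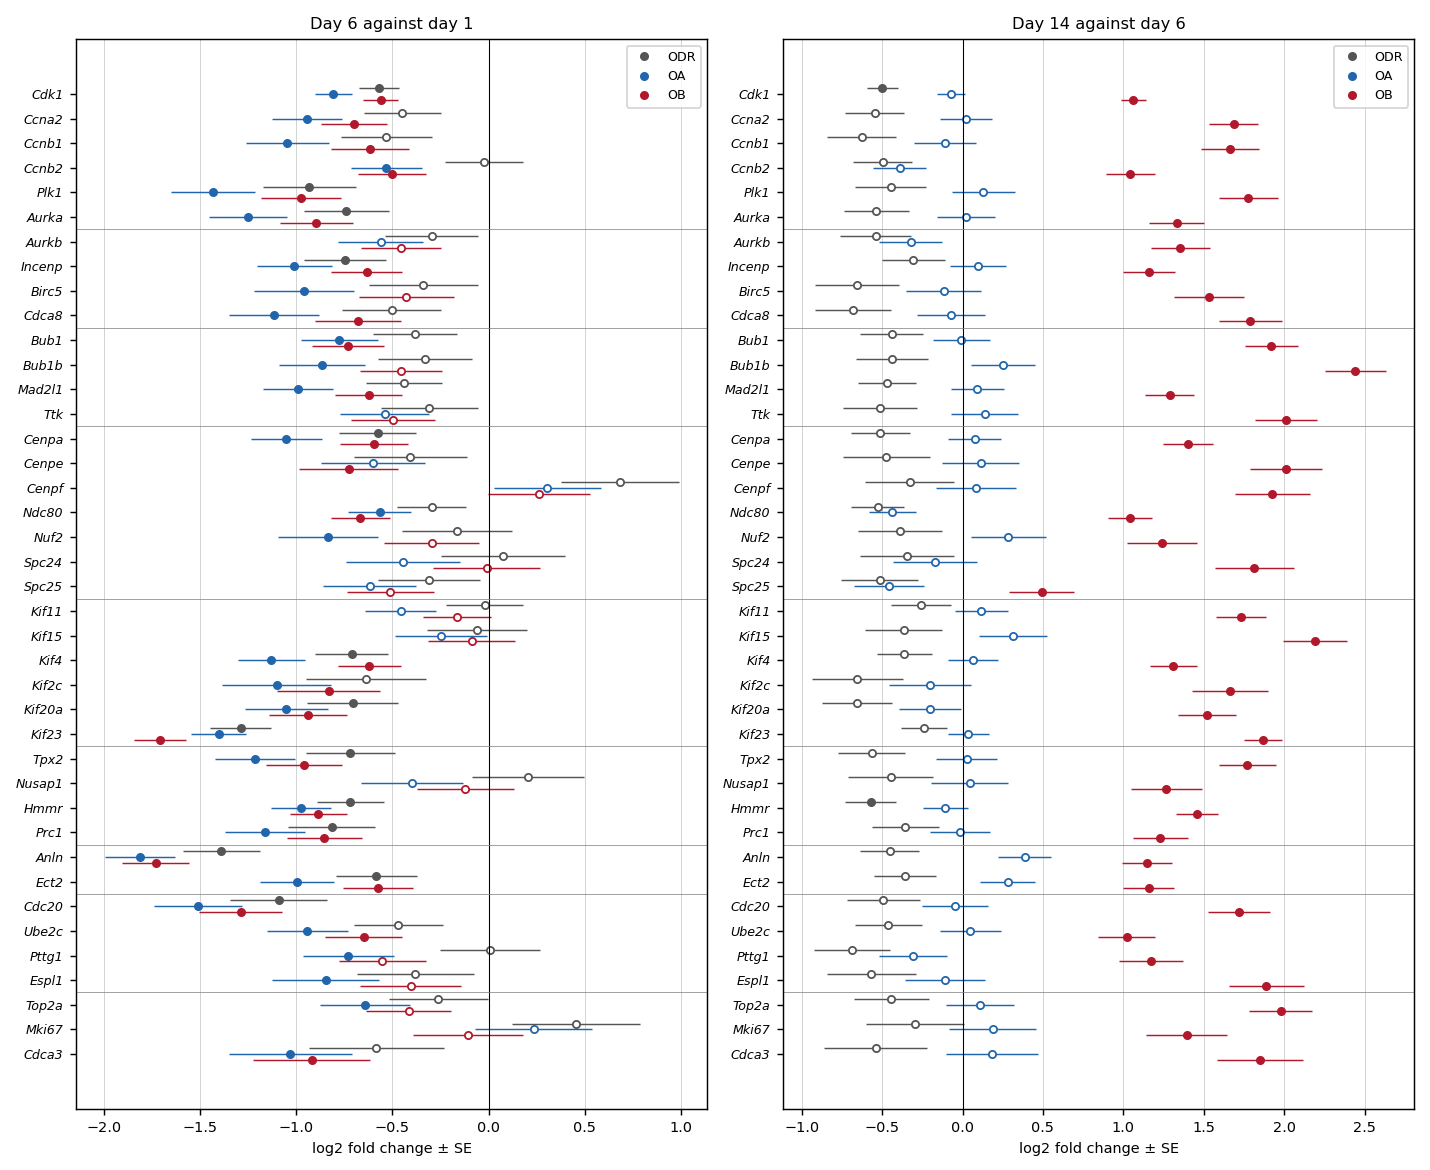
Each row is a gene, and points give the log2 fold change between days within ODR (grey), OA (blue) and OB (red), with bars for ± SE and filled points for limma adjusted p below 0.05. From day 1 to day 6 most points lie below 0 in all combinations, and from day 6 to day 14 all 40 OB points lie above 0 while all 40 ODR points lie below it.

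BMP4 was tested at day 6. In OB, 20 of 40 genes rose with BMP4 and 0 fell, with 15.0 percent of all genes called higher, 17.5 percent lower and a median log2 difference of 0.59 over the members and -0.02 over all genes. Sums over the 40 genes were 13655 and 12028 with BMP4 and 10703, 9177, 7895 and 7317 without it. For 23 genes the groups did not overlap in the upward direction, against 25.3 percent of all genes. The count was 9 without BMP4 replicate 1 and 11 without BMP4 replicate 2, and 16 or 14 without replicate 3 or 4 of the cultures that had no BMP4.

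The rise with BMP4 was uneven across roles. All 4 anaphase genes, all 4 spindle assembly genes and both cytokinesis genes were called, with 4 of 6 cyclins and kinases and 3 of 4 passenger complex genes, but 0 of 4 checkpoint genes, 1 of 7 kinetochore genes, 2 of 6 kinesins and 0 of 3 other chromosome genes. Whether these roles differ from each other was not tested, and several of the calls were not firm. Aurkb, Cdca8, Tpx2, Ect2 and Ube2c lost theirs without replicate 4 of the cultures that had no BMP4 (limma adjusted p from 0.0529 to 0.0877). Leaving out BMP4 replicate 1 or 2 gave log2 differences of 0.56 and 0.63 for Aurkb and 0.58 and 0.69 for Incenp. For Cdca8 they were 0.78 and 0.62, for Ect2 0.63 and 0.55 and for Ube2c 0.45 and 0.75. Kif23 was 201 and 214 with BMP4 against 122, 105, 112 and 90 without it, a log2 difference of 0.95 ± 0.14 (limma adjusted p = 4.94e-05). Cdk1 was 525 and 546 against 382, 358, 335 and 312 (0.63 ± 0.09, limma adjusted p = 5.36e-05). Cdc20 was 378 and 304 against 194, 159, 166 and 136 (1.06 ± 0.22, limma adjusted p = 0.00123).

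Further called genes were Hmmr, at 220 and 240 against 168, 114, 138 and 126 (0.76 ± 0.15, limma adjusted p = 0.000812), and Nusap1, a spindle microtubule bundler, at 292 and 245 against 142, 148, 112 and 100 (1.10 ± 0.25, limma adjusted p = 0.00267). Anln was 410 and 490 against 331, 268, 257 and 214 (0.76 ± 0.17, limma adjusted p = 0.00274), and Cenpa, the only kinetochore gene called, was 226 and 226 against 155, 166, 168 and 136 (0.53 ± 0.18, limma adjusted p = 0.0262). Cenpa lost its call without replicate 4 of the cultures that had no BMP4 (limma adjusted p = 0.0661) and without BMP4 replicate 1 or 2 (limma adjusted p = 0.112 and 0.127). In all of these called genes the groups were apart. Bub1b, by contrast, was 196 and 154 with BMP4 and 163, 153, 126 and 136 without it, overlapping and not called (0.27 ± 0.21, limma adjusted p = 0.358). Spc25 had the opposite sign, at 84 and 98 with BMP4 and 162, 144, 118 and 126 without it, and did not pass (-0.58 ± 0.23, limma adjusted p = 0.0588).

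In ODR, with 1 library of 9611 summed normalized tag counts with BMP4 and 2 of 9276 and 10098 without, 0 of 40 genes passed (0 at an unadjusted p below 0.05 in limma), with 5.06 percent of all genes called higher and 6.46 percent lower. The median log2 difference was 0.02 over the members and 0.00 over all genes. The lone library with BMP4 is assumed in the fit to vary like the other groups. The difference between the BMP4 effects in OB and ODR was positive for all 40 genes, with a median of 0.49, yet 0 of 40 passed in limma (8 at an unadjusted p below 0.05, with 0.714 percent of all genes called higher and 0.541 percent lower). The lowest adjusted p was that of Anln (1.23 ± 0.30, limma adjusted p = 0.055). Beside the BMP4 result in OB, all 12 fibroblast markers were detected in both groups and summed to 25706 and 26508 with BMP4 and to 37327 to 40224 without it. The 8 epithelial markers summed to 1059 and 2097 with BMP4, where 6 reached 10 in each library, and to 53 to 90 without it, where Cldn7 was at 0 in all libraries. The 6 muscle markers summed to 381 and 387 with BMP4 and to 1899–1988 without it. Of these 6, 1 reached 10 in each library with BMP4, and 1 or 2 did in each library without it. The 8 neural markers summed to 2828 and 2548 with BMP4 and to 4722–5879 without it. The 5 keratinocyte markers summed to 8 and 3 with BMP4 and to 80–99 without it. Krt14, Krt6a and Krt17 were at 0 in all libraries without BMP4, where 1 of the 5 reached 10, against 0 with BMP4. The part of these markers in the result was not tested.

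**Figure D4:**
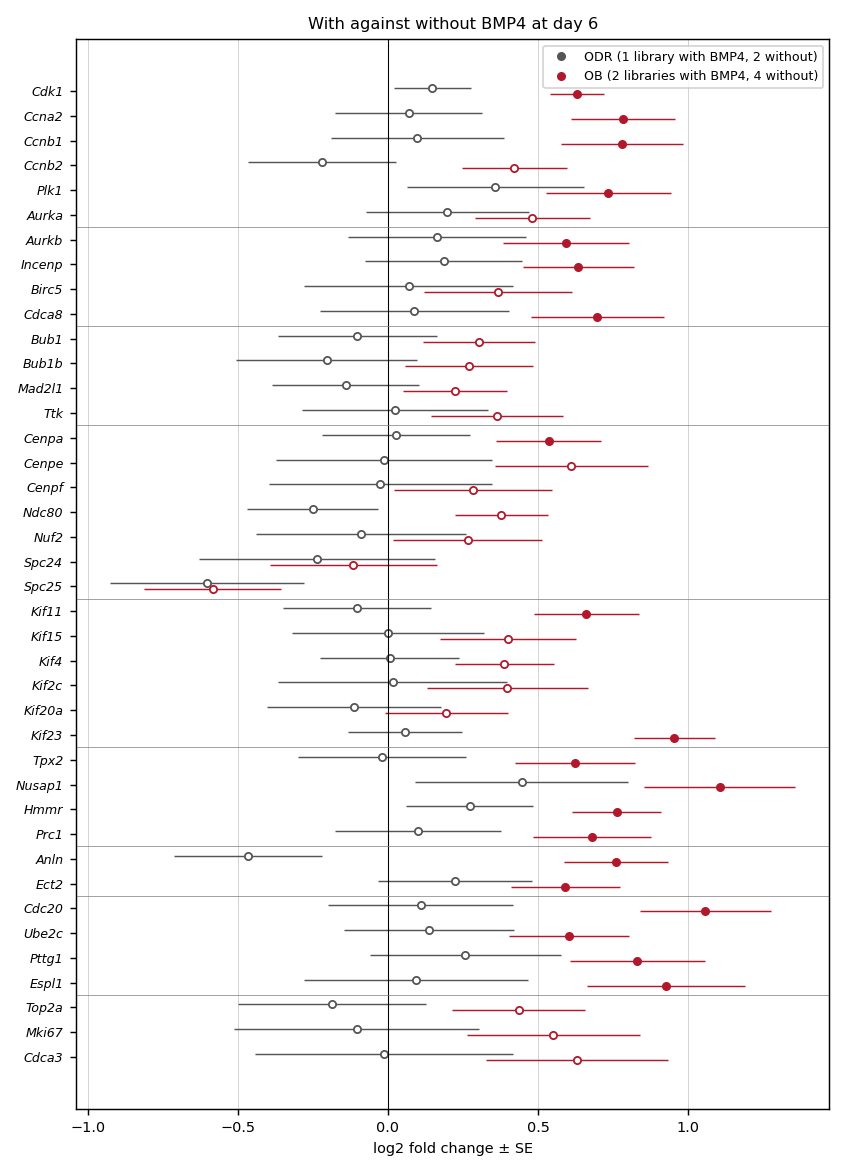
Each row is a gene, and points give the log2 fold change with BMP4 against without it at day 6 in ODR (grey) and OB (red), with bars for ± SE and filled points for limma adjusted p below 0.05. The 20 filled red points are spread over most roles and absent from the 4 checkpoint genes, and no grey point is filled.

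The single libraries gave the range of these genes outside the tested groups. Summed over the 40 genes, mESC had 33365 normalized tag counts and MEF 7790, and all 40 genes were higher in mESC, with a median log2 difference of 2.01. The OB libraries of day 14 lay between them, with 33 genes lower and 7 higher than in mESC (median -0.31) and all 40 higher than in MEF (median 1.78). The 7 were Cdk1, Ccna2, Birc5, Cdca8, Nuf2, Tpx2 and Mki67. Nuf2, a subunit of the Ndc80 complex, was 126 in mESC against 293, 281 and 276 in OB, whereas Espl1 was 1149 in mESC against 406, 450 and 312. The ODR group of day 14 had 15 genes higher and 25 lower than MEF (median -0.15).

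At day 9 the ODB library summed to 18583 and the ODDR library to 7331 without BMP4. All 40 genes were higher in ODB, with a median log2 difference of 1.29 over the members and 0 over all genes. Top2a was 2354 in ODB and 573 in ODDR, the largest log2 difference at 2.04, and Spc25 was 126 and 108, the smallest at 0.22. The library that carries both BMP4 labels at day 9 summed to 10311, with 38 genes higher than in ODDR without BMP4 (median 0.45) and 40 lower than in ODB without BMP4 (median -0.79). Since its Kdm2b value goes against the ODB label, the second of these compares libraries that may differ in factors and in BMP4 together. None of these differences has a replicate check.

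**Figure D5:**
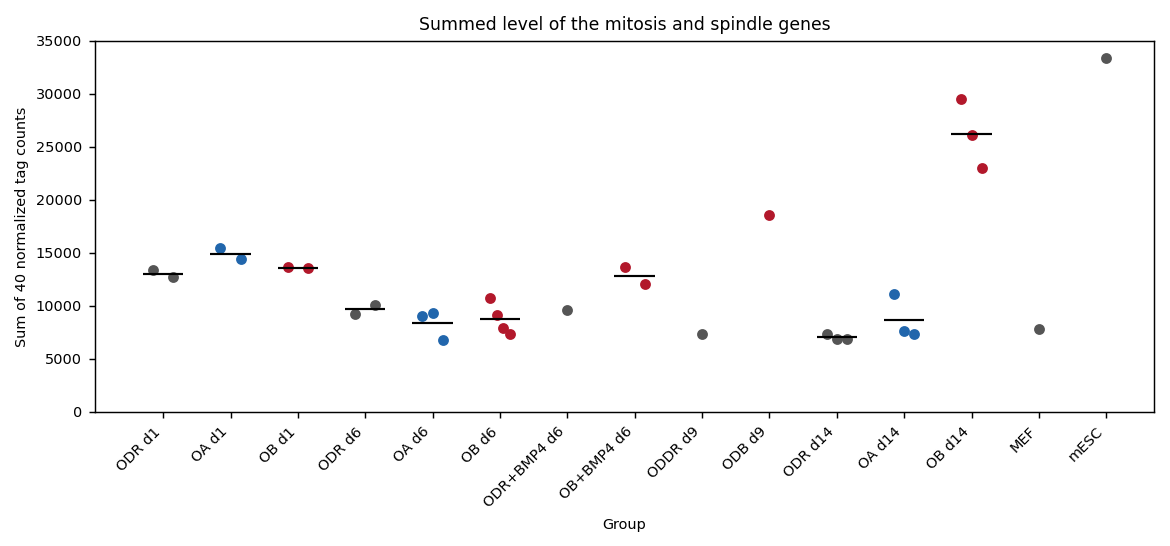
Points are single libraries and lines are group means of the normalized tag counts summed over the 40 genes, and the vertical axis starts at 0. The OB libraries of day 14 lie from 23016 to 29490, above all other cultures and below mESC at 33365.

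Other genes of the division programme were read from lists by role, against the 28.0 percent of all genes called higher and 26.7 percent called lower in OB against ODR at day 14. Among 20 genes that govern transcription of mitotic genes (E2F, DREAM and MuvB factors), 15 rose and 2 fell (median log2 difference 0.82). Mybl2, the B-Myb subunit that joins MuvB on late cell cycle promoters, was 67, 81 and 42 in ODR and 327, 320 and 217 in OB, a log2 difference of 2.19 ± 0.21 (limma adjusted p = 1.52e-07). Rbl2, the pocket protein p130 of the repressive DREAM complex, fell from 203, 150 and 144 to 58, 68 and 65 (-1.35 ± 0.16, limma adjusted p = 1.18e-06). The groups did not overlap for either gene.

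All 12 genes of the mitotic entry switch rose (median 1.34), among them Cdc25c, the phosphatase that activates Cdk1, from 24, 17 and 23 to 135, 108 and 120 (2.46 ± 0.17, limma adjusted p = 8.59e-09). Of 17 genes for subunits and regulators of the anaphase-promoting complex, 10 rose and 2 fell (median 0.38). Fbxo5, the Emi1 inhibitor of that complex, rose by 1.93 ± 0.25 (limma adjusted p = 4.52e-06), while the subunit Anapc11 fell by 0.71 ± 0.14 (limma adjusted p = 0.000259). Condensin and cohesin genes rose in 15 of 16 cases (median 0.99), with Stag2 lower (-0.36 ± 0.11, limma adjusted p = 0.0114).

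Among 31 further kinetochore genes 25 rose and 1, Zwint, fell (-0.75 ± 0.11, limma adjusted p = 2.56e-05), with a median of 1.14. Among 28 further spindle and cytokinesis genes 26 rose and 0 fell (median 1.33). Spag5, a spindle-associated protein, was 126, 135 and 120 in ODR and 592, 606 and 517 in OB (2.16 ± 0.12, limma adjusted p = 1.26e-09). All 18 DNA replication genes rose (median 1.85), led by Orc1 (2.64 ± 0.15, limma adjusted p = 1.25e-09). Of 13 D-type cyclins, their kinases and kinase inhibitors, 2 rose and 7 fell (median -0.72). The inhibitor Cdkn1a went from 1268, 1297 and 1331 to 608, 730 and 916 (-0.81 ± 0.12, limma adjusted p = 1.79e-05), and the inhibitor locus Cdkn2a from 224, 226 and 262 to 57, 84 and 110 (-1.54 ± 0.30, limma adjusted p = 0.000322).

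With BMP4 in OB at day 6, where 15.0 percent of all genes were called higher and 17.5 percent lower, 11 of 18 DNA replication genes rose and 0 fell (median log2 difference 0.59). Of further kinetochore genes 10 of 31 rose and 1 fell (median 0.31), of further spindle and cytokinesis genes 8 of 28 rose and 1 fell (median 0.33), and of transcription genes 8 of 20 rose and 1 fell (median 0.27). Entry switch genes rose in 5 of 12 cases and fell in 1 (median 0.37), and condensin and cohesin genes rose in 5 of 16 and fell in 0 (median 0.22). Genes of the anaphase-promoting complex rose in 2 of 17 and fell in 1 (median -0.01), and D-type cyclins, their kinases and inhibitors rose in 3 of 13 and fell in 2 (median -0.04). Racgap1, the partner of Kif23 and Ect2 at the midzone, rose by 1.08 ± 0.16 (limma adjusted p = 8.76e-05), and E2f2 by 2.59 ± 0.32 (limma adjusted p = 1.31e-05). Cdk6, a kinase of D-type cyclins, fell by 2.01 ± 0.27 on the log2 scale (limma adjusted p = 3.02e-05).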

How the data were processed

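Poly-A RNA was sequenced, and the table has 35 library columns. Per the submitters' processing notes, bcl2fastq, Bowtie2 2.2.5, RSEM and build mm10 were used. The authors deposited 1 table of normalized tag counts per gene, treated here as a score because how they were normalized is not given in the sources. The values are whole numbers of similar totals with a ceiling of 18690, so they show changes relative to the rest of a library and not absolute RNA amounts, and no counting interval is given.

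The edgeR test foreseen for raw counts was not used, since these values are not counts. Values were transformed as log2(value + 1), 13860 genes passed a minimum of 10 in 2 or more libraries, and limma 3.58.1 in R 4.3.3 was fitted to 27 libraries in 11 groups (16 residual degrees of freedom) without trend, robust moderation or block. Tests were two-sided, with Benjamini-Hochberg adjustment over all genes tested and a threshold of 0.05. There were 21 comparisons, 4 of them differences between changes. Identical columns (2 pairs) were left out or not tested. The fit was checked on simulated data.

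The members and lists were chosen with earlier results of these data known. All members may be named by level; fold change, SE and adjusted p are given mainly for called members among the 3 lowest adjusted p of a role, for exceptions within a role, and for up to 3 called genes per direction in the other lists. Some members were named after their values were seen: the largest and smallest differences, the genes above mESC and the contrasts Bub1b and Spc25 with BMP4. Marker sums use genes listed by cell type, and a marker counts as detected above 0. Of the listed genes, those not matched by symbol were left out (1 of 13 entry switch, 6 of 22 condensin and cohesin and 1 of 32 kinetochore genes). Alternatives tried were a pseudocount of 10, no filter, a filter at 50, median-of-ratios rescaling, trend and robust moderation, the replicate number as a block, fits of the compared groups only, the shared library kept, and each library left out.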

Additional observations from a re-analysis of the deposited data

Results flagged for a closer look

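The change from day 6 to day 14 differed between OB and ODR for 40 of the 40 genes, by limma's test of the difference itself, with OB above ODR each time. The gene with the lowest adjusted p in each role had a log2 difference of changes of 1.56 (Cdk1), 2.47 (Cdca8), 2.88 (Bub1b), 1.91 (Cenpa), 2.11 (Kif23), 2.03 (Hmmr), 1.60 (Anln), 2.21 (Cdc20) and 2.42 (Top2a).

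In OB at day 6, replicate 1 stood apart from the other 3 libraries for Ndc80 (99 against 74, 75 and 71) and Cdca3 (276 against 148, 126 and 124). The gap to the nearest library was 0.857 of the group's range for Ndc80 and 0.842 for Cdca3, above the 95% critical value of Dixon's test for 4 samples. These are 2 of 40 genes tested in that group, and chance gives about 1 in 20. Without this library 25 of 40 genes rose with BMP4 in OB, against 20 with it.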

How the results depend on the processing

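Of 357 counts of called members recomputed under the alternatives, 324 were equal to the reported count or within 1.5 times of it, 33 moved and 0 reversed. The 324 include counts that stayed at 0, and a comparison with 0 called members could not reverse. All 40 genes stayed called in OB against ODR at day 14 under each of them. The difference of BMP4 effects (0 called) gave 1 with a pseudocount of 10, 1 with a filter at 50, 1 with trend and robust moderation, 2, 1 and 2 with the shared library kept as ODR day 6, as ODR with BMP4 or under both, and 2 without OA day 14 library 2, an alternative chosen after seeing the data. ODR from day 6 to day 14 (2 called) gave 1 without a filter, 1 with rescaling, 0 with only the compared groups, and 4 or 1 with the shared library kept as ODR day 6 or as ODR with BMP4. OA against ODR at day 14 (2 called) gave 0 with only the compared groups.

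With each library left out in turn, counts ranged from 9 to 25 for BMP4 in OB, 0 to 1 for the difference of BMP4 effects, 39 to 40 for the OB minus ODR change from day 6 to 14, and 39 to 40 for OB from day 6 to 14. They ranged from 6 to 10 (ODR), 21 to 32 (OA) and 12 to 27 (OB) from day 1 to 6, 0 to 1 for ODR and 0 to 2 for OA from day 6 to 14, 1 to 2 for OA against ODR at day 14, 0 to 1 for OB against ODR at day 6, and 40 to 40 for OB against ODR and OB against OA at day 14. They stayed at 0 for the others. ODR with BMP4 could not be left out, since it has 1 library.

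Of 100 pairs of libraries with the same replicate number 25 had deviations correlated above 0.1 (median r 0.04), against 14 of 202 pairs with different numbers (median -0.02). Within day 1 all 6 same-numbered pairs were above 0.1 (0.20 to 0.24), within day 14 all 9 were positive and 4 above 0.1, and within day 6, 2 of 13 were. In no tested comparison with 3 or more pairs was every pair above 0.1, so the numbers were not taken to pair the samples. Comparisons within day 1 had 2 pairs each and fell outside this rule. In a group of 2 libraries the deviations are mirror images, so the day 1 pairs repeat each value. The pairs counted here are thus not independent. Whether the numbers mark shared batches was not tested. With the replicate block, counts were 1 for ODR from day 6 to 14, 1 for OA from day 6 to 14, 1 for the difference of BMP4 effects, 3 for OA against ODR at day 14, 15 for BMP4 in OB and 21 for OB from day 1 to 6. The members no longer called included Ccnb1 and Ccnb2 in the last of these (limma adjusted p = 0.0819 and 0.0892) and Cenpa with BMP4 (limma adjusted p = 0.0554). The cause of these movements was not tested. Depth is unknown, so what it limits cannot be given.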

Other observations

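Libraries of the same group differed in the level of these genes as a set. In OA at day 14, replicate 1 had 39 of 40 genes above the group mean, with a median deviation of 0.36 on the log2 scale. In OB at day 6, replicate 1 had 38 of 40 genes above it (median 0.27) and replicate 4 had 39 of 40 below it (median -0.22). In OA at day 6, replicate 3 had 37 of 40 below it (median -0.28). In OB at day 14, replicate 1 had 38 above it and replicate 3 had 37 below it (medians 0.16 and -0.16).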
